A study of Mus musculus with 82 samples.

Results

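Irf1, Irf2, Gbp3, Gbp2b, Tgtp1, Ifit2, Ifit3 and Ifi202b are mouse genes that answer to interferon or help to control that answer, and they were chosen by name. Each was represented by 1 probe, so they made up 8 of the 21915 features measured. Interferons are secreted in infection and inflammation, bind receptors on neighbouring cells and switch on genes through STAT and IRF transcription factors. STAT dimers activated by interferon gamma bind a sequence called GAS, and the STAT and IRF complex activated by type I interferon binds a sequence called ISRE. In the liver these programmes run in hepatocytes and in resident immune cells such as Kupffer cells.

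Liver RNA was measured on 82 arrays that compare a pair of RNAs. Liver of females of BXD recombinant inbred strains (40 arrays) and of BXD males (32 arrays) was hybridised with a mixed RNA from B6 embryos of day 17.5. BXD strains are inbred mosaics of the genomes of C57BL6/J (B6) and DBA2/J (D2). Liver of B6 males met the same mix on 2 arrays, B6 liver met D2 liver directly on 6 arrays (3 labelled female and 3 labelled male), and enriched B6 RNA, as the labels put it, met enriched D2 RNA on 2 arrays. The mice were 10 to 20 weeks old and unfasted. The design text names 18 BXD strains and 3 males for each strain, while the labels hold 17 strains and both sexes, and the sources used here do not say whether mice were pooled. The values are log ratios, given below as log2 of liver over embryo mix or of B6 over D2. The log base and direction are not stated: a base of 10 was read from values bounded at 2 in the deposited unit, and the direction was set so that 10 hepatocyte probes had a higher median than 11 embryonic probes, which held on 74 of 74 arrays.

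The B6 and D2 arrays labelled female went against their labels. The female-biased P450 gene Cyp2b9 read -2.78, -2.92 and -2.52 (B6 over D2), the male-biased Cyp7b1 read 2.67, 2.47 and 2.59, and the Y-linked Eif2s3y read 0.74, 0.69 and 0.56 there. On the 3 arrays labelled male, Cyp2b9 lay between -0.26 and 0.14. Forward and swapped arrays of replicate 1 correlated across probes at 0.133 (labelled female) and -0.0187 (labelled male) after turning, against 0.556 to 0.895 for 32 pairs set against the embryo mix. Values from these arrays are therefore given for each label apart, and the sexes are called labelled female and labelled male. Among the BXD strains, Cyp2b9 was higher in females in 17 of 17 and Cyp7b1 in 0 of 17.

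The windows just upstream of these genes are shown because the ISRE and GAS sequences named above can be read in them. Each spans 250 bases before to 50 bases after a gene start in RefSeq's mouse assembly GRCm38.p6, which is a B6 genome, and all 8 genes had at least 1 window. Capitals mark the ISRE core GAAANNGAAA on either strand and the GAS core TTCNNNGAA, which reads the same on both strands. Of 32851 such windows in the genome, 3.44% held the ISRE core and 8.30% held the GAS core. The windows lie at chr3:142559794-142560093 (plus strand), chr3:142594597-142594896 (plus), chr11:48992197-48992496 (minus), chr19:34583279-34583578 (plus), chr11:53769764-53770063 (plus) and chr8:46739495-46739794 (plus).
Gbp3: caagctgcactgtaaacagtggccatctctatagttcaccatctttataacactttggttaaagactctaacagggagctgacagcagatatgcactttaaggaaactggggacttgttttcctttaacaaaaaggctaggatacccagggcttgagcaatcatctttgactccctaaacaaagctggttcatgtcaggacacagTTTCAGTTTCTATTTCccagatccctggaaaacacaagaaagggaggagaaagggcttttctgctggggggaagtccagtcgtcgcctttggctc
Gbp2b: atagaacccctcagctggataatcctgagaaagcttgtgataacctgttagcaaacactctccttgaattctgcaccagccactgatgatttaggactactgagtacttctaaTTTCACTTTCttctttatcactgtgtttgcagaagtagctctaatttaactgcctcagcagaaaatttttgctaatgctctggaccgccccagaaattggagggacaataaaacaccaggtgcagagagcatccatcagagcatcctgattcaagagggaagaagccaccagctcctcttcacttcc
Tgtp1: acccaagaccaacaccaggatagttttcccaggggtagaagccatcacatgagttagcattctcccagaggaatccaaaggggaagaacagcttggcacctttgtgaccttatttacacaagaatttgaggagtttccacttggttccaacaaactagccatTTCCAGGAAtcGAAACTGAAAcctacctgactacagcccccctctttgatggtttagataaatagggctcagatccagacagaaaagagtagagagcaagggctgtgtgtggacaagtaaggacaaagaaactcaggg
Ifit3: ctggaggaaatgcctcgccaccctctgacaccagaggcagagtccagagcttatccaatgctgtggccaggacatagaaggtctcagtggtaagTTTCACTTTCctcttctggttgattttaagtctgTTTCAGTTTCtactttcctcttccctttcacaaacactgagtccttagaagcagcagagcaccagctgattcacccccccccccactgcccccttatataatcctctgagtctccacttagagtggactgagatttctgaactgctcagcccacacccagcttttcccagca
Irf1: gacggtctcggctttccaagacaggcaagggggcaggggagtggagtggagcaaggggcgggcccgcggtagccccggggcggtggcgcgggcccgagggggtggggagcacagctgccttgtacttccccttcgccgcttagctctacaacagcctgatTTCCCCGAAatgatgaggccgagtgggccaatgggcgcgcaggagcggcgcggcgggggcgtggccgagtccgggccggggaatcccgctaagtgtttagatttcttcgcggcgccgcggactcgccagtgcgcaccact
Irf2: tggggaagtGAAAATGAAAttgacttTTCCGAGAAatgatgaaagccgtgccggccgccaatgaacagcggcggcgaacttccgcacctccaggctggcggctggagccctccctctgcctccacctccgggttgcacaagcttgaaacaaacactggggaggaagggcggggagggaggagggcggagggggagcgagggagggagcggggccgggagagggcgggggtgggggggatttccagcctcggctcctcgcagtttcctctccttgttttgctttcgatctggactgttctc

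Gbp3 had 2 overlapping ISRE cores whose first bases lay 45 and 39 bases before the start, and Gbp2b had 1 at 137 bases. Ifit3 had 2, at 156 and 122 bases. Tgtp1 carried a GAS core at 88 bases and an ISRE core at 77 bases, next to each other, and Irf2 carried an ISRE core at 241 bases and a GAS core at 224 bases. Irf1 held a GAS core alone, at 90 bases. Ifit2 and Ifi202b, not shown, held a GAS core at 241 and at 148 bases and no ISRE core in these letters. Second windows of Gbp3, Irf1 and Ifit2, at other annotated starts, held neither. In all, 5 of the 8 genes had an ISRE core and 5 a GAS core. These counts are of genes, over 11 windows, while the genome shares of 3.44% and 8.30% are of single windows. Gbp3 and Gbp2b are neighbours on chromosome 3, Ifit2 and Ifit3 are neighbours on chromosome 19, Irf1 and Tgtp1 lie on chromosome 11, Ifi202b lies on chromosome 1 and Irf2 on chromosome 8.

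Adult liver was first set against the embryo mix, on the means of 13 strains that had forward and swapped arrays in both sexes. In the mean of both sexes, Irf2, Tgtp1 and Ifi202b were higher in liver by more than 2-fold. Irf2 read 1.20 ± 0.23 (log2, SD, n = 13 strains), a 2.30-fold difference, with limma's adjusted p = 2.2e-11. Tgtp1, an immunity-related GTPase that acts on vacuoles of intracellular pathogens, read 1.42 ± 0.60 or 2.68-fold (2.1e-07), and Ifi202b, a DNA-binding protein of the Ifi200 family, read 1.28 ± 0.32 or 2.42-fold (4.8e-10). All 13 strains were above 0 for each of these genes. They made 3 of 8 genes past the thresholds of an adjusted p under 0.05 and a log2 ratio of at least 1 in size, where 13.9% of all features passed (4.69% on the higher side). The median log2 ratio of the 8 genes was 0.93, against 0.07 for all features. Within 1 sex the size of these ratios differed. Over all 17 strains Irf2 had a mean of 0.83 in females and 1.61 in males, and Ifi202b 0.95 and 1.55. Tgtp1 had 2.01 in females and 0.79 in males, and Gbp3, not called here, had 1.40 and 0.17. The embryo mix is a single RNA whose own spread is outside the test, and in whole tissue fewer cells of a type and less RNA per cell cannot be told apart.

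Gbp3, Gbp2b, Ifit3 and Irf1 had smaller positive ratios that stayed under the size threshold. Ifit3, a tetratricopeptide protein that takes part in the antiviral response, read 0.94 ± 0.35, and Gbp3, a guanylate-binding GTPase, read 0.93 ± 0.72. Gbp2b, a second guanylate-binding GTPase of the same cluster, read 0.55 ± 0.57, and Irf1, a transcription factor that activates interferon-response genes, read 0.46 ± 0.25. Ifit2, the neighbour of Ifit3, was the one gene below the embryo mix, at -0.49 ± 0.19, with 0 of 13 strains above 0. Gbp3 had the widest spread over strains among the 8 genes and Ifit2 the narrowest. With swapped arrays alone Gbp3 read 1.11 and passed the size threshold, and it also passed without BXD19 (1.0005).

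Females and males were compared within strains, on 34 values of 17 strains. Gbp3 and Tgtp1 were higher in females by more than 2-fold, Ifit3, Ifit2 and Irf1 were higher by less, and Irf2 and Ifi202b were lower. Gbp3 had a lowest value of -0.06, a median of 1.30 and a highest value of 3.37 in females, against -0.58, 0.0039 and 1.47 in males (log2 liver over embryo mix). Tgtp1 had 0.94, 1.77 and 3.96 in females, against 0.09, 0.82 and 1.68 in males. Female values of both genes thus ran to far higher levels, while their lower end overlapped the male values. Gbp3 was 2.35-fold higher in females (log2 difference 1.23 ± 0.62, SD, n = 17 strains, limma adjusted p = 1.6e-05), in 16 of 17 strains. Tgtp1 was 2.32-fold higher (1.22 ± 0.94, adjusted p = 3.0e-04), in 17 of 17 strains, by between 0.06 in BXD9 and 3.14 in BXD5. The direction of these differences is shown strain by strain in the plot of female and male values.

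**Figure D1:**
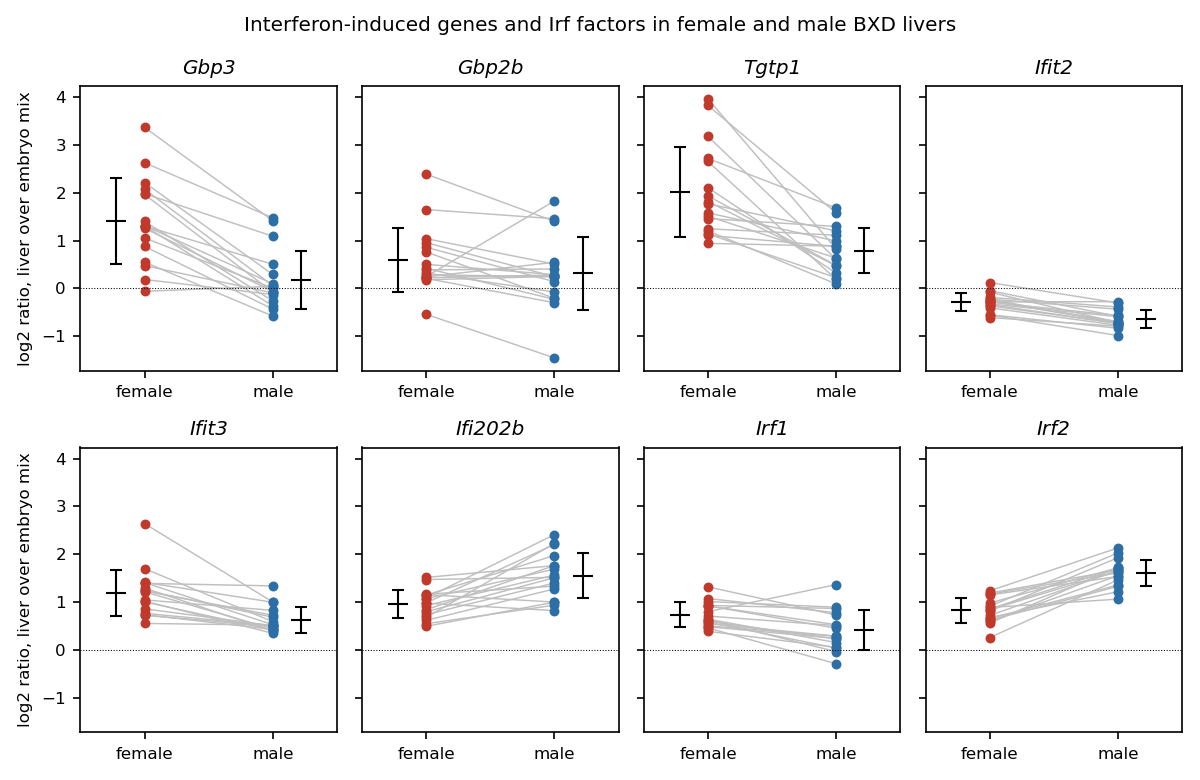
Log2 ratio of liver over embryo mix (vertical axis) of each gene in females (red) and males (blue). Each point is 1 of 17 strains, lines join the sexes of a strain, and bars give the mean and SD. Gbp3 and Tgtp1 spread upward in females, while Irf2 lies lower in females in 17 of 17 strains.

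Ifit3 had 0.55, 1.21 and 2.64 in females, against 0.35, 0.52 and 1.34 in males (lowest, median and highest log2 ratio). It was 1.47-fold higher in females (0.56 ± 0.41, adjusted p = 2.7e-04) in 17 of 17 strains. Ifit2 had -0.61, -0.28 and 0.12 in females, against -0.99, -0.71 and -0.28 in males. Ifit2 thus lay below the embryo mix in every value but that of BXD28 females. It was higher in females, with a difference of 0.35 ± 0.15 (adjusted p = 2.9e-05, higher in 16 of 17 strains) and the narrowest spread over strains of the 8 genes. Irf1 had 0.39, 0.64 and 1.32 in females, against -0.29, 0.29 and 1.37 in males. Its difference was 0.32 ± 0.30 (adjusted p = 0.00182), positive in 16 of 17 strains.

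Irf2, which binds the same sites as Irf1 and is known to repress many of its targets, went the other way. It had 0.26, 0.84 and 1.24 in females, against 1.06, 1.65 and 2.13 in males. It was 1.71-fold lower in females (-0.78 ± 0.30, adjusted p = 1.2e-06) and lower in 17 of 17 strains, so that only the highest female values reached the lowest male ones. Ifi202b had 0.49, 0.98 and 1.52 in females, against 0.82, 1.52 and 2.41 in males. It was 1.51-fold lower in females (-0.60 ± 0.49, adjusted p = 5.0e-04) in 15 of 17 strains, with BXD27 and BXD28 at 0.16 above. Other copies of the Ifi202 and of the Tgtp genes are near-identical to those named here, and a probe may not tell them apart.

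Gbp2b was not called between the sexes. It had -0.54, 0.39 and 2.39 in females, against -1.45, 0.25 and 1.83 in males, a difference of 0.28 ± 0.62 (adjusted p = 0.133, higher in 12 of 17 strains). In BXD9 alone Gbp2b stood at 0.25 in the female and 1.83 in the male value, a difference of -1.58, and without BXD9 the difference was 0.40 (adjusted p = 0.00397). BXD9 also gave the lowest difference for Gbp3 (-0.10), Tgtp1 (0.06), Ifit3 (0.03) and Irf1 (-0.57). It is 1 of 4 strains measured on forward arrays alone. In all, 7 of 8 genes were called between the sexes, 5 higher and 2 lower in females, where 33.7% of all features were called (16.5% higher and 17.2% lower). The median difference was 0.33 over the 8 genes and 0.02 over all features.

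Sex was partly tied to the order of deposit, since some runs of consecutively numbered samples held a single sex. In 5 runs that held both, the difference between female and male means ran from 0.90 to 2.26 for Gbp3, from 0.44 to 1.79 for Tgtp1, from 0.46 to 0.88 for Ifit3 and from 0.20 to 0.63 for Ifit2. For Irf2 it ran from -1.27 to -0.17, for Ifi202b from -1.10 to 0.16, for Irf1 from -0.13 to 1.20 and for Gbp2b from -0.09 to 0.53. Gbp3, Tgtp1, Ifit3, Ifit2 and Irf2 thus kept their sign in each of these runs. In most of the runs the females and males were of different strains, so strain and sex are mixed there. The 2.26 of Gbp3 came from 1 female value, of BXD15, and 5 male values of other strains. With values per replicate number and the run as a term in limma, 5 of 8 genes were called, and 4789 of 21915 features. The same values without the run term gave 8096 features. Tgtp1 (0.59, adjusted p = 0.108) and Irf1 (0.14, adjusted p = 0.404) were then not called, and Gbp3 read 0.995 (adjusted p = 0.00588).

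Markers of other cell types moved with sex in part, where 33.7% of all features were called. Of 5 measured macrophage and Kupffer cell markers 2 were called, both higher in females, C1qb (0.37) and C1qa (0.35). Without being called, Mpeg1 (0.32) read higher in females and Cd5l (-0.18) and Marco (-0.10) lower. The mean of this list ran from 0.29 to 1.27 in females, against 0.18 to 1.05 in males. Of 6 lymphocyte markers Ptprc (0.22) and Cd3e (0.14) were higher and Klrb1c (-0.38) lower in females. Their list mean ran from 0.28 to 0.49 in females, against 0.26 to 0.45 in males. Of 3 dendritic cell markers Cd83 (0.33) was higher and Ccr7 (-0.70) and Itgax (-0.27) lower in females, with a list mean of -0.05 to 0.85 in females, against 0.08 to 1.10 in males. Of 5 stellate cell and fibroblast markers Lum (0.27) and Lrat (0.26) were higher in females, with a list mean of -1.09 to -0.59 in females, against -1.22 to -0.66 in males, and higher in females in 15 of 17 strains. Of 6 endothelial markers Tek (0.33) was higher and Tie1 (-0.26) and Flt4 (-0.12) lower, with a list mean of -0.47 to 0.06 in females, against -0.54 to 0.16 in males. Of 3 neutrophil markers 0 were called, and their list mean of -2.09 to -0.62 in females, against -1.77 to -0.87 in males, was higher in females in 14 of 17 strains. The macrophage mean was higher in females in 13 of 17 strains, the lymphocyte mean in 8 and the dendritic mean in 3. Being log ratios, these values do not say which markers were at or near background, and their part in the differences of the 8 genes was not tested.

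Strain differences were tested on 26 values of the 13 strains with both orientations. Gbp3, Gbp2b and Irf1 differed between strains. Gbp3 strain means ran from 0.03 in BXD19 to 2.39 in BXD28, a 5.14-fold range, with BXD15 second at 2.05. The SD over strains was 0.72 against a residual SD of 0.38 (moderated F = 8.69, limma adjusted p = 0.0176). Gbp2b ran from -0.05 in BXD2 to 1.89 in BXD28 with BXD6 second at 1.55, a 3.84-fold range (SD 0.57 against 0.30, F = 8.58, adjusted p = 0.0180). Irf1 ran from 0.08 in BXD32 to 1.02 in BXD15, a 1.92-fold range (SD 0.25 against 0.13, F = 6.86, adjusted p = 0.0382). These were 3 of 8 genes, where 1.2% of all features were called.

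BXD28 and BXD15 ranked 1 and 2 of 17 strains for Gbp3 in females, and 2 and 1 in males. For Gbp2b BXD28 ranked 1 in females and 3 in males, BXD6 ranked 2 in both sexes, and BXD9, measured on forward arrays alone, ranked 12 in females and 1 in males. BXD28 had the highest mean of 17 strains for 5 of 8 genes, which were Gbp3, Gbp2b, Tgtp1 (2.70), Ifit2 (-0.09) and Ifit3 (1.82). In BXD28 females Gbp3 stood at 3.37 and Ifit3 at 2.64, against 1.41 and 1.001 in BXD28 males. Irf2 in BXD28 (0.95) was the second lowest of the 13 strains. BXD28 and BXD15, next to each other at the top for Gbp3, differed by less than the residual SD of that gene, and so did BXD28 (0.72) and BXD11 (0.69), which followed BXD15 among the 13 strains for Irf1.

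**Figure D2:**
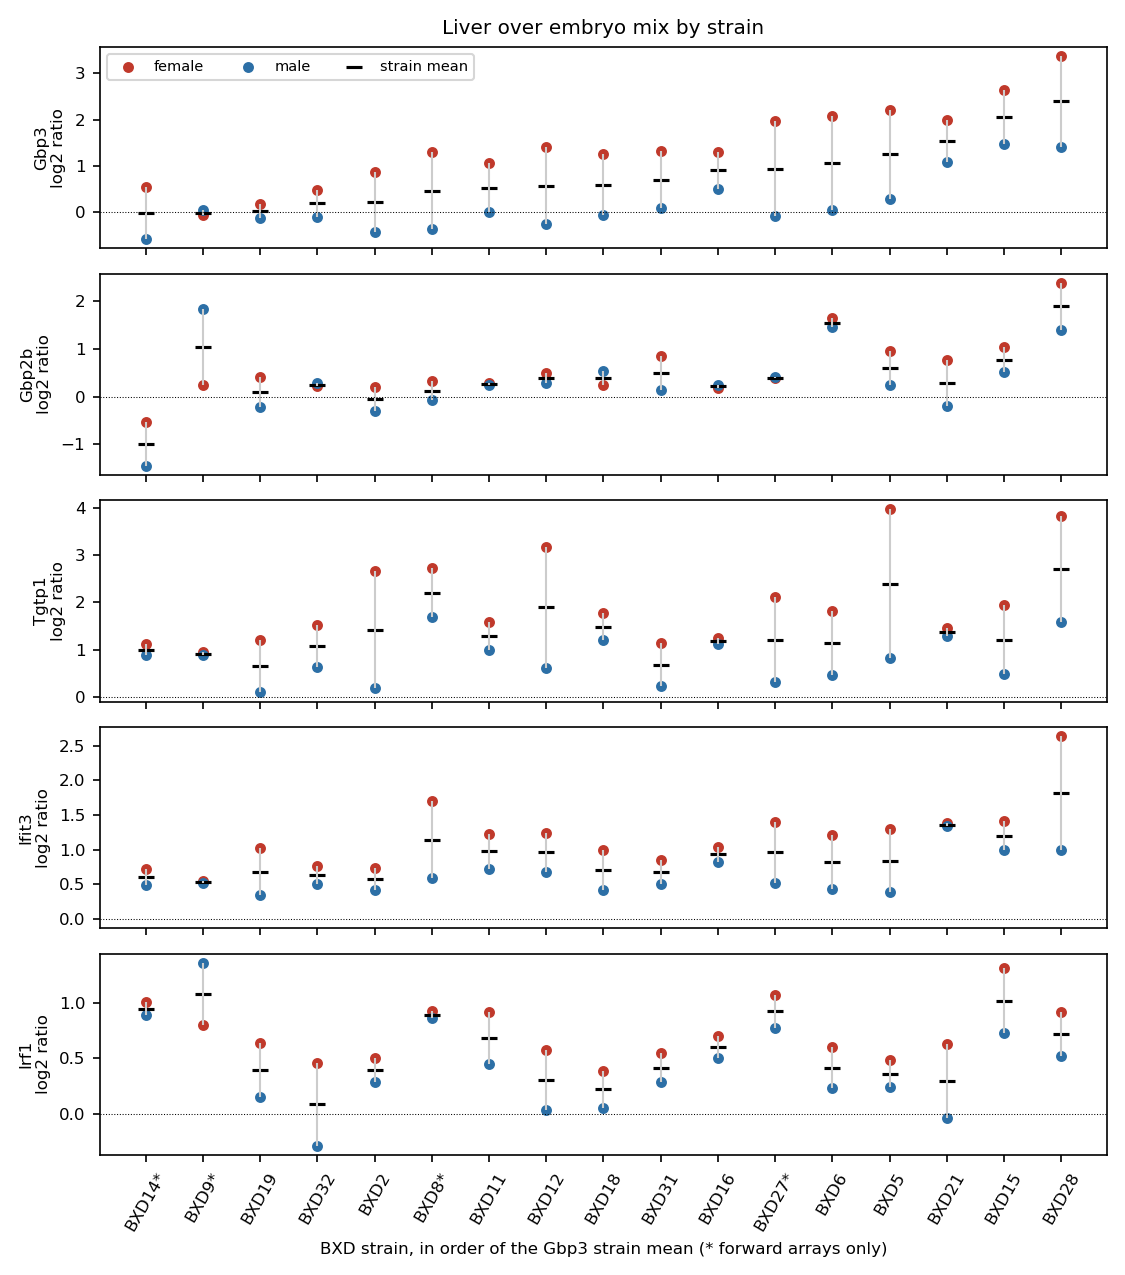
Log2 ratio of liver over embryo mix (vertical axis) of Gbp3, Gbp2b, Tgtp1, Ifit3 and Irf1 in each of 17 BXD strains (horizontal axis), ordered by the Gbp3 mean. Red points are females, blue points males and black bars strain means. BXD28 has the highest mean of Gbp3, Gbp2b, Tgtp1 and Ifit3, and BXD9 and BXD15 the highest of Irf1.

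The other 5 genes were not called between strains. Ifit2 (adjusted p = 0.124), Irf2 (0.213), Ifit3 (0.218), Ifi202b (0.428) and Tgtp1 (0.472) had strain ranges of 1.60-fold, 1.77-fold, 2.36-fold, 2.01-fold and 4.15-fold in that order. For Tgtp1 the residual SD of 0.69 was above the strain SD of 0.60. The residual holds any sex difference that varies from strain to strain, and that of Tgtp1 ran from 0.06 to 3.14. Single strains decided the calls that were made. Gbp3 was lost without BXD28 (adjusted p = 0.0583) or BXD15 (0.0676), Gbp2b without BXD28 (0.105) or BXD6 (0.0609), and Irf1 without BXD15 (0.270) or any of 5 others, BXD11, BXD12, BXD18, BXD19 and BXD28 (0.0505 to 0.0739). With swapped arrays alone, or with values centred on the medians of their run and sex, 0 of 8 genes were called by limma, and 101 and 9 features in all.

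Agreement between arrays of the same RNA set the precision of these values. Forward and swapped arrays, turned to the same direction, differed on average by 0.60 ± 0.25 for Irf1 (SD, n = 31 pairs), and by -0.37 ± 0.58 for Gbp3. The forward array was the higher one for Irf1 in each pair, at 0.21 to 1.14. Gbp2b had the widest spread between orientations, at 0.17 ± 0.86, which is above its SD over strains, while Irf2 and Ifit3 were near 0 with an SD of 0.26 and 0.29. Averaging both orientations removes a shared shift, and BXD8, BXD9, BXD14 and BXD27 had forward arrays alone. These 4 strains had high Irf1 means of 0.90 to 1.08, and they were outside the test of strain differences. Between replicate numbers of the same strain and sex, 5 pairs differed by a median of 0.40 for Gbp3 (range 0.09 to 0.75), 0.63 for Gbp2b and 0.06 for Tgtp1.

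Direct B6 and D2 arrays were used to ask whether the parental strains differ. Gbp3 read -0.57, -1.12 and -1.06 on the arrays labelled female, and 0.40, 0.44 and 0.89 on those labelled male (log2 B6 over D2). The arrays of the 2 labels did not overlap and had opposite signs. Ifit3 read -0.25, -0.53 and -0.58 on arrays labelled female and 0.13, 0.05 and 0.22 on those labelled male. Ifi202b read 0.57, 0.45 and 0.46 on arrays labelled female and -0.03, -0.03 and -0.03 on those labelled male. Irf2 read 0.67, 0.46 and 0.20 on arrays labelled female and -0.18, -0.17 and -0.01 on those labelled male. For Ifi202b and Irf2 the arrays labelled male thus lay at or just below 0, and those labelled female above it.

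**Figure D3:**
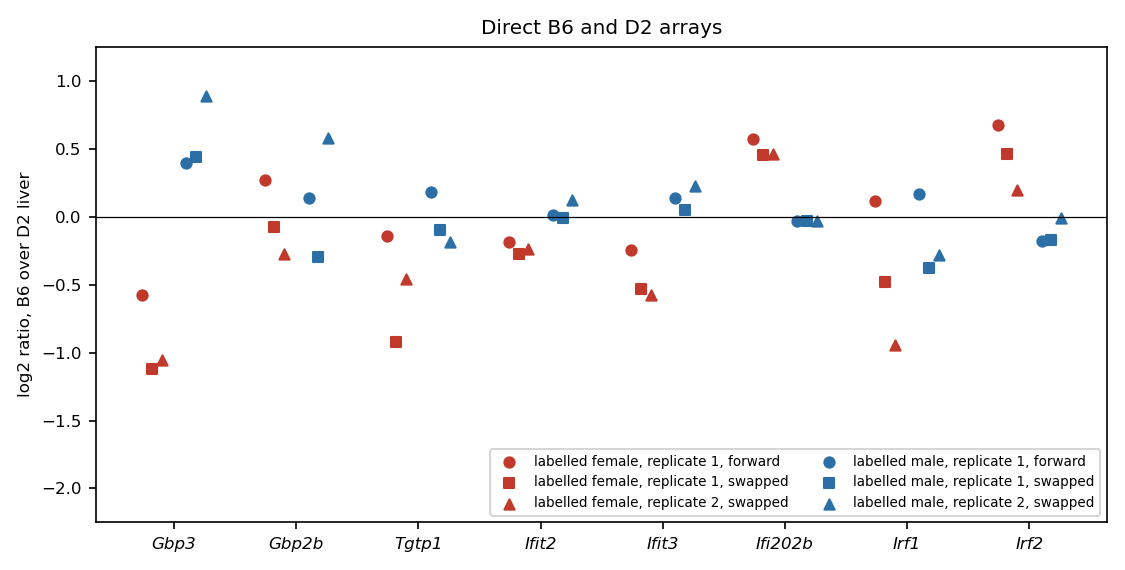
Log2 ratio of B6 over D2 liver (vertical axis) of the 8 genes on each of 6 arrays. Red marks are arrays labelled female and blue marks arrays labelled male, with the shape giving replicate and orientation. For Gbp3, Ifit3, Ifi202b and Irf2 the red and blue marks lie on opposite sides of 0.

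Tgtp1 read -0.14, -0.93 and -0.46 on arrays labelled female and 0.18, -0.10 and -0.19 on those labelled male. Ifit2 read -0.18, -0.27 and -0.23 on arrays labelled female and 0.01, -0.01 and 0.12 on those labelled male. Irf1 read 0.12, -0.48 and -0.95 on arrays labelled female and 0.17, -0.38 and -0.28 on those labelled male, so that its forward array was the highest under each label. Gbp2b read 0.27, -0.07 and -0.27 on arrays labelled female and 0.14, -0.30 and 0.58 on those labelled male, with overlap. For 6 of the 8 genes all 3 arrays labelled female had the sign opposite to the BXD difference, female minus male. Cyp2b9 and Cyp7b1 did the same. How many of all features did so was not counted, so this cannot be read as particular to these genes. The part of the labels in these values was not tested.

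Over both labels limma called 0 of 8 genes between B6 and D2, and 0.0593% of all features. Tgtp1 (-0.28, limma adjusted p = 0.313) and Ifi202b (0.23, limma adjusted p = 0.323) were the 2 genes with an unadjusted p under 0.05, which 14% of all features had. On the arrays labelled male alone the means were 0.65 for Gbp3, 0.25 for Gbp2b, 0.16 for Ifit3 and -0.07 for Tgtp1, with 0 of 8 genes called. On the arrays labelled female alone they were -0.95 for Gbp3, -0.09 for Gbp2b, -0.48 for Ifit3 and -0.49 for Tgtp1, again with 0 called. Under each label alone 0 of all features were called, so these counts say nothing about the 8 genes in particular. The difference between the labels was not called for any of the 8 genes, where 0% of all features were called and 7.63% had an unadjusted p under 0.05. For Gbp3 it was -1.60 (limma adjusted p = 0.491, unadjusted p = 0.00169).

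The 8 genes were then set against each other over the means of 17 strains, which gave 28 pairs. Of 10 pairs among Gbp3, Gbp2b, Tgtp1, Ifit2 and Ifit3, 5 passed the test with a positive correlation, and Gbp2b passed with Gbp3 alone. The lowest r of these 10 pairs was that of Gbp2b and Tgtp1, 0.35 (adjusted p = 0.296), and it was 0.02 without BXD28. Ifi202b, outside these 10 pairs, did not vary with them in the same way. Its r was -0.36 with Gbp3, -0.38 with Gbp2b, 0.05 with Tgtp1, -0.44 with Ifit2 and -0.20 with Ifit3, and none passed the test. Gbp3 and Ifit3 were closest, with Pearson's r = 0.847 (permutation p = 7e-05, adjusted p = 0.00196) and Spearman's rho = 0.738 (permutation p = 0.00117, adjusted p = 0.0328). Without the 2 strains farthest from the median of Gbp3 r was 0.711, without BXD28 it was 0.754, and it was 0.818 in females and 0.791 in males. With run and sex fitted out it was 0.797. Ifit2 and Ifit3 followed, with r = 0.745 (p = 5.1e-04, adjusted p = 0.00714) and rho = 0.615 (p = 0.00965), with r = 0.573 without the 2 farthest strains and 0.601 without BXD28, where it was no longer past the test (adjusted p = 0.142).

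**Figure D4:**
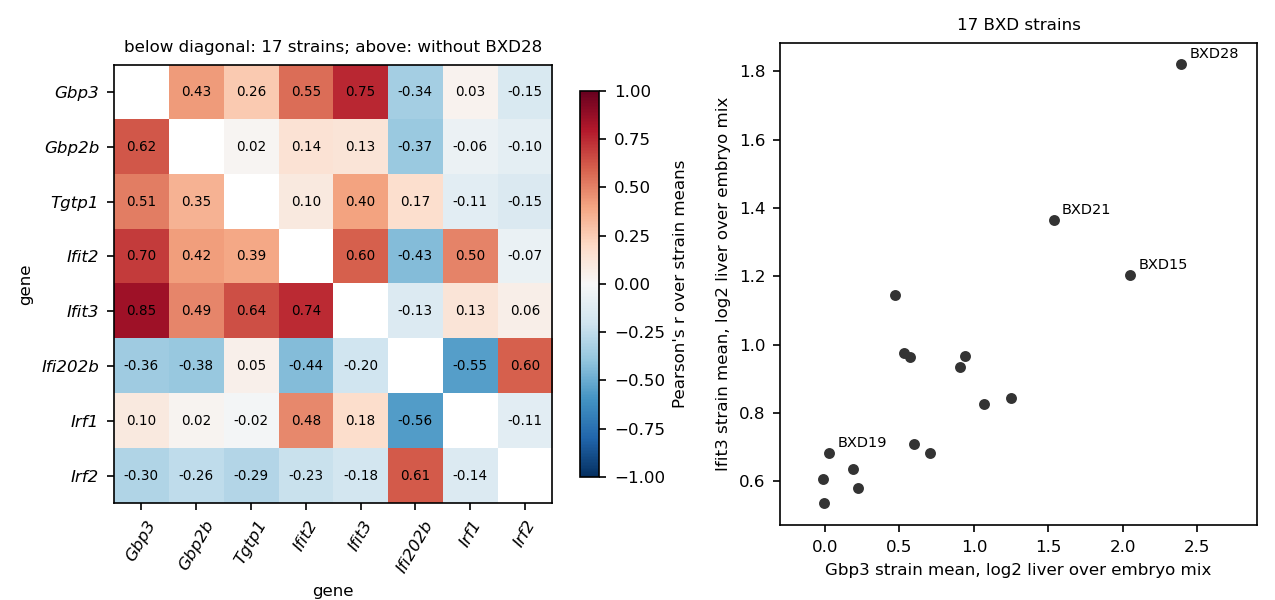
The left panel gives Pearson's r for each pair of genes over 17 strain means below the diagonal and over 16 strains without BXD28 above it, in colour from blue (-1) to red (1). The right panel plots strain means (log2 liver over embryo mix) of Ifit3 (vertical) against Gbp3 (horizontal), with r = 0.847 and BXD28 at the upper right.

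Gbp3 and Ifit2 had r = 0.699 (p = 0.00177, adjusted p = 0.0165) and rho = 0.598 (p = 0.0127). The neighbours Gbp3 and Gbp2b had r = 0.625 (p = 0.008, adjusted p = 0.0448) and rho = 0.640 (p = 0.00677), with r = 0.792 in females and 0.380 in males. Tgtp1 and Ifit3 had r = 0.641 (p = 0.00695, adjusted p = 0.0448) and rho = 0.583 (p = 0.0161). Without BXD28 these 3 relations had r = 0.555, 0.429 and 0.402 in that order, and none passed the test (adjusted p = 0.164, 0.344 and 0.374). Ifi202b and Irf2, which were both lower in females, had r = 0.610 (p = 0.0099, adjusted p = 0.0462) and rho = 0.620 (p = 0.00941), with r = 0.313 in females and 0.838 in males. Its r was 0.600 without BXD28 (adjusted p = 0.142) and 0.839 with run and sex fitted out. Over the 13 strains with both orientations it was 0.61 (adjusted p = 0.0933). With Ifi202b, 1042 of 21914 features had an r of at least 0.8, so this relation cannot be read as particular to these genes. In all, 6 of 28 pairs, each named above, were past an adjusted p of 0.05, and 1 pair by rho, Gbp3 and Ifit3. How often pairs of other features pass this test was not counted, so the count cannot be read as particular to these genes. Without the 2 strains farthest from the median of the first gene of a pair 0 of 28 passed, with r from 0.395 to 0.711 for these 6 pairs. Leaving out the extreme strains of a gene narrows its range and leaves 15 strains, which in itself lowers r and raises p. For Gbp3 and Ifit3 the permutation p was then 0.00282 and the adjusted p 0.0790.

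Over 17 strains none of the 7 relations of Irf1 passed the test, but these values hold the 4 strains with forward arrays alone, on which Irf1 read higher. Its r was 0.10 with Gbp3, 0.02 with Gbp2b, -0.02 with Tgtp1, 0.18 with Ifit3, 0.48 with Ifit2, -0.14 with Irf2 and -0.56 with Ifi202b, the last with a permutation p of 0.0210 and an adjusted p of 0.0839. Over the 13 strains with both orientations r of Irf1 was -0.736 with Ifi202b, which passed the test (permutation p = 0.00359, adjusted p = 0.0251), 0.616 with Gbp3 (adjusted p = 0.0933), 0.533 with Ifit3 (0.152) and 0.361 with Gbp2b (0.321). With run and sex fitted out r was -0.612 with Ifi202b (adjusted p = 0.0342) and 0.489 with Gbp3 (0.108). Irf2 had a negative r with Gbp3 (-0.30), Gbp2b (-0.26), Tgtp1 (-0.29), Ifit2 (-0.23) and Ifit3 (-0.18), and none of these passed the test. All strain values share the embryo mix and the array type.

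Among 3438 other named features, other interferon-induced genes lay nearest to Gbp3 and Ifit3 by Pearson's r over the 17 strain means, given here as a description. For Gbp3 these were Psmb9, an immunoproteasome subunit (0.899), Ifit3 and Ifit1 (0.781). For Ifit3 they were Ifit1 (0.920), Gbp3 and Psmb9 (0.841), and for Tgtp1 the guanylate-binding gene Gbp2 (0.770), Pam (0.729) and Cpb2 (0.721). Gbp3 and Ifit3 were thus among each other's nearest, and Tgtp1 was nearest to another GTPase. Ifit2 had Twf2 (0.803), Rpia (0.763) and Ifit3, and Gbp2b had Gngt1 (0.857), Aldh1a7 (0.802) and Omp (0.799). Irf2 had Pde1b (0.855), Hoxa2 (0.817) and Socs1, an inhibitor of interferon signalling (also 0.817). Ifi202b had Slc1a1 (0.970), Osr1 (0.966) and Rab33b (0.965), and Irf1 had Tial1 (0.914) and Lmnb2 (0.890) among its nearest. No interferon-induced gene is among those named for Gbp2b, Ifi202b or Irf1. The 17 strain means hold the 4 strains with forward arrays alone, where Irf1 read higher. The part of this in the r values of Irf1 was not tested. An r of at least 0.8 was met by 1042 of 21914 features for Ifi202b (4.75%) and by 306 for Irf1 (1.40%), but by 19 for Irf2, 10 each for Gbp3 and Ifit3, 6 for Gbp2b, 1 for Ifit2 and 0 for Tgtp1.

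Other genes of the interferon pathway, 44 measured of 144 listed, are given beside these 8. In liver against the embryo mix 9 were higher and 1 lower, 22.7% of the 44 against 13.9% of all features, among them the GTPases Iigp1 (2.53), Mx2 (1.13) and Irgm2 (1.09), Ifit1 (1.03), Ly6e (1.24) and the factors Irf9 (1.10) and Irf7 (1.02). In antigen presentation the class I chain H2-D1 (2.83) and Psmb9 (1.76) were higher, and the receptor chain Ifngr1 (-1.42) was the lower one. Between the sexes 11 of 44 were higher and 3 lower in females, 31.8% of them against 33.7% of all features, so that the list as a whole did not stand above the background. The median difference was 0.04 for the list and 0.02 for all features. Of 7 other interferon-induced GTPases 1 was called, Irgm2 (0.33), and Gbp2, of the same family as Gbp3, read -0.06. Of 11 antiviral genes 3 were higher, Ifit1 (0.48), Rsad2 (0.39) and Lgals3bp (0.14), and of 2 other Ifi200 genes Ifi204 was higher (0.31), opposite to Ifi202b. Ifit1 thus had the direction of its neighbours Ifit2 and Ifit3, while Gbp2 did not pass the test. Of 5 other Irf factors 0 were called, with values of -0.15 for Irf7 to 0.19 for Irf9. Among 10 ligands, receptors and signalling genes Ifngr1 (0.48) and the phosphatase Ptpn2 (0.39) were higher, and Socs1 (-0.39), Ifnb1 (-0.38) and Myd88 (-0.30) lower. Among 9 antigen presentation genes Psmb9 (0.38), Psmb10 (0.30), H2-D1 (0.28) and Tap2 (0.22) were higher. Between strains 2 of 44 were called (4.55%, against 1.2% of all features), the immunoproteasome subunits Psmb10 (adjusted p = 0.00106) and Psmb9 (0.0350), and between B6 and D2 limma called 0.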

How the data were processed

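The authors deposited log ratios without a stated unit, which were read as log10 (values bounded at 2), as channel 2 over channel 1, and converted to log2. The sources used here do not give the scanner, software or normalization. Forward arrays, which hold the BXD or B6 liver RNA in channel 1, were turned in sign. The 1 array with a title at odds with its channels was read by its channels. Probes of a symbol were averaged. The platform annotation and RefSeq tables (GRCm38.p6) gave names, and RefSeq gave the promoter windows. Values of a strain and sex are the mean over orientations of the mean within each. Tests used limma 3.58.1 in R 4.3.3 with Benjamini-Hochberg adjustment at 0.05 over 21915 features: strain as a block for sex, sex as a term for strains and for B6 against D2. Correlations used 100000 two-sided permutations, adjusted over 28 pairs. The scripts were tested on simulated data. Signal intensity was not analysed here, and the number of arrays limits the precision. Nothing says that replicates came from separate mice, so p-values measure the spread between these samples, which may be technical. The genes and lists were chosen with earlier results of these data known. Other pathway genes were named by size among those called, up to 4 per list and comparison, and the genes nearest by r up to 3 per gene, 1 of which is not reported here. The alternatives tried were centring, scaling, quantiles, moderation, orientation, sex, strains left out, run, a replicate block and a dye term. Those for the labels of the B6 and D2 arrays, for BXD28 and for run in the correlations were chosen after seeing the data.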

Additional observations from a re-analysis of the deposited data

Results flagged for a closer look

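For each of the 8 genes, the arrays of a strain and sex, or the B6 and D2 values, were searched for 1 value far from the rest, in 48 groups of 4 or 5 values in all. Chance alone gives about 1 in 20 such groups if they are independent, and 5 were found. Here the groups are 6 sets of values, each read for the 8 genes, and arrays of a strain and sex mix both orientations. The rate of 1 in 20 is therefore a rough guide only. In BXD21 females the swapped array of replicate 2 stood apart for 3 genes at once. Ifi202b read 0.2926 there against 1.30 to 1.40 on the other 3 arrays, Irf2 read 0.9169 against 1.31 to 1.36, and Ifit2 read -0.6622 against -0.17 to -0.12 (log2 liver over embryo mix). Ifit2 read 0.7786 on the forward array of replicate 1 in BXD31 females, against -0.37 to -0.16 on 4 others. Gbp3 read -0.4348 on the forward array of replicate 2 in BXD6 males, against 0.15 to 0.27 on 3 others.

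For 4 genes every B6 and D2 array labelled female lay on one side of 0 and every array labelled male on the other. The share of all features with such a split was not counted, so the split cannot be read as particular to these genes. The difference, labelled female minus labelled male, was -1.6037 for Gbp3, -0.6428 for Ifit3, 0.5194 for Ifi202b and 0.4737 for Irf2 (log2 B6 over D2). By limma's sex term on 4 values the adjusted p was 0.491, 0.605, 0.605 and 0.661 in that order, so none passed the test. Sex-biased genes go against the female labels on these arrays, and their part in the difference was not tested.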

How the results depend on the processing

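Of 1115 values recomputed under alternatives for the 8 genes and for all features, 1030 kept their direction and their side of the threshold, or a count within 1.5 times, 65 no longer passed or shrank, 19 newly passed or grew, and 1 reversed: the sex difference of Irf1 was -0.0215 in the 4 strains with forward arrays alone, where limma called 0 of 8 genes and 0 features between the sexes. Leaving out 1 strain in turn, the genes called ran from 7 to 8 between the sexes, from 3 to 4 for liver against embryo mix and from 0 to 3 between strains, with 1 left without BXD15 and 0 without BXD28. Between strains 0 were called with swapped arrays or with values centred on run and sex medians. All 17 strains gave 5589 features between strains, against 262 in the 13. Of 28 pairs tested for correlation 1 passed by Spearman's rho, 1 without BXD28 and 0 without the 2 strains farthest from the median. Over the 13 strains with both orientations, Gbp3 with Ifit2, Gbp3 with Ifit3 and Ifit2 with Ifit3 still passed. Gbp3 with Gbp2b (permutation test, adjusted p = 0.0538), Tgtp1 with Ifit3 (0.100) and Ifi202b with Irf2 (0.0933) did not. For B6 against D2 no setting called any of the 8 genes. A replicate block gave 0 of 8 genes and 2 features, against 13 without it. Leaving out 1 value in turn gave 0 of 8 genes and 0 to 419 features, and a dye term on 6 arrays 0 of 8 and 648 features. The cause of these changes was not tested. No signal over background was analysed here, so a ratio near 0 may also come from a probe near background.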

Other observations

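Liver of B6 males was measured against the embryo mix on 1 forward and 1 swapped array, outside the comparisons above. Male values of the 13 BXD strains with both orientations are set beside it (log2 liver over embryo mix, no test). Tgtp1 had a lowest value of 0.09, a median of 0.63 and a highest of 1.58 in BXD males, against 0.30 and 0.14 in B6 males, and 11 of 13 BXD strains lay above the B6 mean. Gbp3 had -0.43, 0.06 and 1.47 in BXD males, against -0.09 and 0.44 in B6 males, with 5 of 13 BXD strains above. Irf2 had 1.22, 1.65 and 2.13 in BXD males, against 1.61 and 1.65 in B6 males, and Ifi202b had 0.94, 1.56 and 2.41, against 1.49 and 1.49. Irf1 in B6 males read 0.58 on the forward and 0.10 on the swapped array, which differ in the direction seen in the BXD pairs.

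On the 2 swapped arrays of RNA labelled as enriched (log2 B6 over D2), Gbp3 read -0.39 on the array labelled female and 0.27 on the one labelled male. Tgtp1 read -0.48 and -0.05, Ifit3 -0.35 and -0.16, Ifi202b -0.21 and -0.19 and Irf2 -0.38 and -0.20 in the same order of labels. The sources used here do not say what the RNA was enriched for. Cyp7b1 read -1.26 and -1.22 on these arrays and Cyp2b9 0.30 and 0.22, unlike the other arrays labelled female. There is 1 array for each label and no test was made.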
